A study of Mus musculus with 4 samples.

Results

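The library of T cells with the TRP1low T cell receptor (TCR) stimulated with the K8 peptide was compared with the other 3 libraries of the series. A gene was taken when its log2 normalized count in TRP1low with K8 lay at least 1, a factor of about 2 in counts, above the highest or below the lowest of the other 3. The range of those 3 was the yardstick, and a gene was used only if it reached 100 normalized counts in any library. Of 10528 such genes among 16338 rows, 233 (2.21%) lay above the range and 388 (3.69%) below it. The series holds 4 libraries of mouse T cells, each 1 sample: TRP1low with K8, TRP1low with M9, TRP1high with K8 and TRP1high with M9. All cells had been stimulated for 48 h by B cells loaded with the named peptide, and were then taken out of the co-culture by fluorescence-activated sorting before total RNA was prepared. The receptors are named for tyrosinase-related protein 1, a melanocyte protein and melanoma antigen, and the series asks what a change in how tumor peptides bind MHC class I does to the effector function of CD8 T cells. All 4 groups share the B cell co-culture, no unstimulated cells are included here, and the labels state neither the age nor the strain of the mice.

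A CD8 T cell reads its antigen as a peptide held by an MHC class I molecule on another cell. Strong and lasting TCR signals, together with costimulation and interleukin 2, switch the cell to glucose use, lipid synthesis, growth and granule production, and induce feedback inhibitors and inhibitory receptors. Resting T cells instead express receptors that keep them moving between blood and lymphoid tissue, such as S1pr1, and the survival receptor of interleukin 7. Chemokine receptors and integrins then set which tissue a cell enters.

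Each group has 1 library, so no difference here has a replicate check and no p-value is given. The intervals beside folds are 95% Clopper-Pearson intervals on estimated reads rounded to whole reads. They describe counting error only, and leave out the error of assigning reads to genes and the spread between samples. Values for single genes are log2 of normalized counts plus 1, and those of the other 3 libraries stand in the order TRP1high with K8, TRP1high with M9 and TRP1low with M9. A distance is the log2 step from TRP1low with K8 to the nearest of the other 3. A difference is that from their mean, and folds are ratios of normalized counts to the nearest library. The libraries held 29.6 M estimated reads in TRP1low with K8, the least, and 40.3 to 41.5 M in the other 3. A total of 1205 genes were at 0 in TRP1low with K8, against 633 to 769. In this bulk RNA, fewer cells of a type and less RNA per cell cannot be told apart. The defining CD8 T cell markers were present at similar levels in all 4 libraries, and 0 of 13 lay outside the range by the margin. Cd8a, a chain of the CD8 coreceptor, was at 15.14, against 14.33, 14.80 and 14.82.

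TRP1low with K8 lay outside the range of its companions more often than any other library did. By the same rule, 122 genes (1.16%) placed TRP1high with K8 outside its other 3, 207 (1.97%) TRP1high with M9 and 103 (0.978%) TRP1low with M9, against 621 (5.90%) for TRP1low with K8. The Pearson correlation across the 10528 genes, which are not independent replicates, was 0.933 between TRP1low with K8 and TRP1low with M9, 0.890 with TRP1high with K8 and 0.851 with TRP1high with M9. Between the other libraries it ran from 0.922 to 0.957. The median difference of all used genes was 0.03, on values that the authors had already scaled between libraries. The 233 genes above held 0.602% of normalized counts in TRP1low with K8 and 0.151% to 0.187% in the others. The 388 genes below held 0.673%, against 2.03% to 3.16%. With TRP1high with K8 left out of the range, 362 genes lay above. With TRP1low with M9 left out, 470 lay above and 802 below. Of the genes above, 104 reached 100 counts only in TRP1low with K8, and 129 (1.25% of 10352) lay above when the minimum had to be reached in 1 of the other 3.

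**Figure D1:**
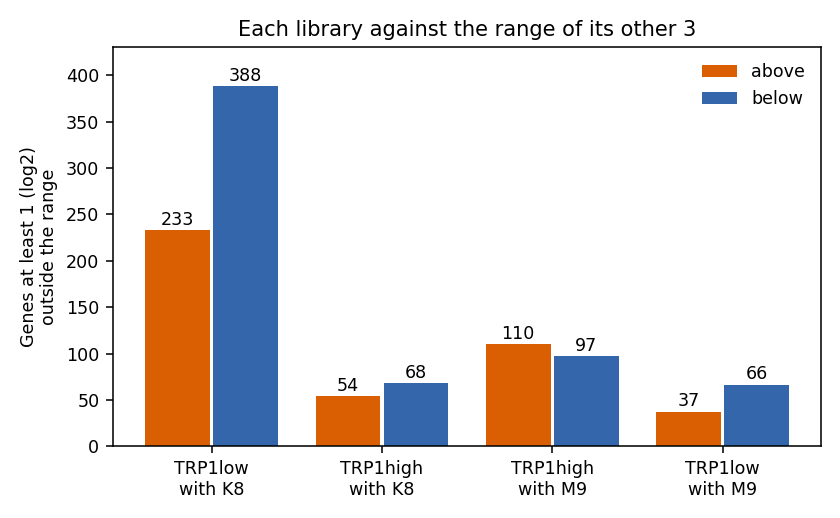
Number of genes at least 1 (log2) above (orange) or below (blue) the range of the other 3 libraries, for each library in turn. TRP1low with K8 has 233 and 388 genes, and each of the other libraries has between 37 and 110 on either side.

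**Figure D2:**
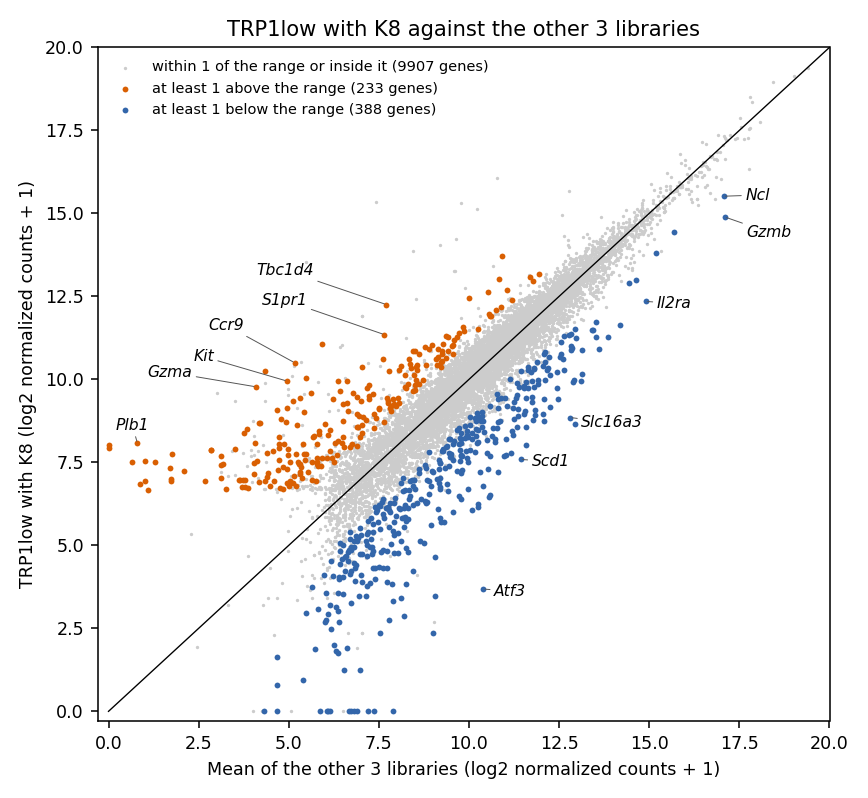
Level of each of the 10528 used genes in TRP1low with K8 (vertical) against the mean of the other 3 libraries (horizontal), both as log2 normalized counts plus 1. Orange points lie at least 1 above and blue points at least 1 below the range of the other 3, grey points do neither, and the line marks equality.

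The library with the same TCR was the nearest one for most genes on the low side. No share over all used genes stands beside the counts of nearest and farthest libraries given here. Across all used genes TRP1low with M9 also correlated best with TRP1low with K8 (0.933). TRP1low with M9 was nearest for 238 of the 388 genes below (61.3%), which means that it also lay under both TRP1high libraries there. On the high side, TRP1high with K8, which shares the peptide, was nearest for 109 of 233 genes (46.8%) and TRP1low with M9 for 78 (33.5%). TRP1high with M9, which shares neither, was the farthest library for 114 genes above and 239 below. The other 3 libraries differed among themselves in these genes too. Their range had a median of 1.01 for the genes above and 1.01 for those below, against 0.46 for all used genes. For 169 of the genes above and 300 of those below, that range was smaller than the distance of TRP1low with K8. The distance reached 2 in 61 genes above and 104 below. At the margin itself, Art2b (1.003), Zfp354c (1.005) and Pafah2 (1.006) were just above it, and Primpol (0.997), Slc36a1 (0.998) and Dennd4c (0.999) just short of it. On the low side Hs3st3b1, Perp (-1.001) and Cntrob (-1.005) were members, and Myo7a (-0.998), Arid5b (-0.999) and Selenon were not.

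Transcript length and base composition went with the members. The genes were divided into 10 classes of equal size by length and by GC content. Of the class with the longest transcripts, 6556 bases or more, 9.68% (101 genes) lay below and 2.30% above. The median transcript of the genes below had 4173.5 bases, that of the genes above 3352 and that of all used genes 3014.5. In the class with the highest GC content 6.90% lay below and 1.25% above, while in the class with the lowest GC content the shares were 1.82% and 2.68%. The part of length and GC content in the differences was not tested. After the median difference of each GC and length class was taken away, 231 genes lay above, of which 204 were among the 233, and 352 lay below, of which 335 were among the 388.

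**Figure D3:**
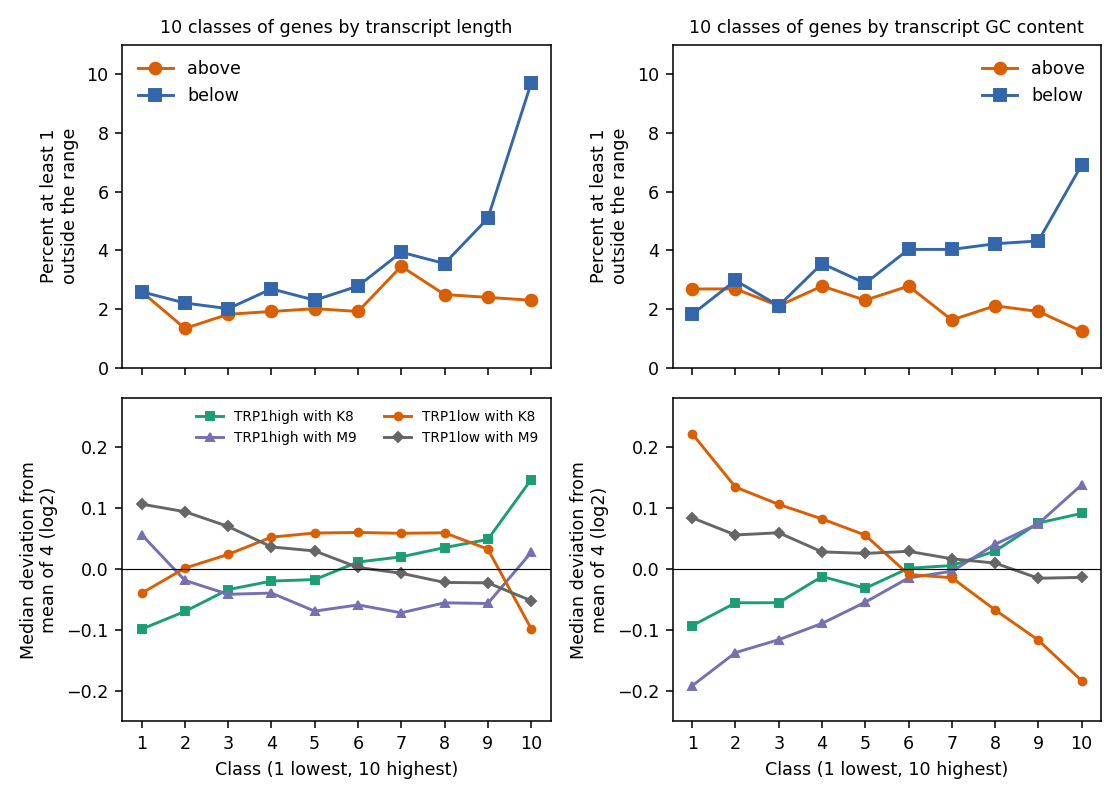
Used genes in 10 classes of equal size by the length (left) and GC content (right) of their longest protein-coding transcript. Upper panels give the percent of genes at least 1 above (orange) or below (blue) the range of the other 3, and lower panels the median deviation of each library from the mean of all 4 (log2). The share below reaches 9.68% in the longest class, and the median of TRP1low with K8 declines from the lowest to the highest GC class.

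Genes of general cell functions with very long annotated transcripts were among the abundant genes below. Ncl, which encodes the nucleolar protein nucleolin, stood at 15.52 against 17.01, 17.27 and 16.90, a level 2.61-fold lower than in TRP1low with M9 (interval 2.58 to 2.64). Prrc2a, an RNA-binding protein gene, stood at 11.64 against 14.36, 14.64 and 13.56. In both, the 3 other libraries lay well clear of TRP1low with K8. The following genes were chosen after their values were seen. Tpr, a component of the nuclear pore basket, was at 8.67 against 12.94, 13.42 and 12.43, a distance of -3.76. The translation factor Eif5b was at 9.99 against 13.30, 13.32 and 12.11. The splicing-associated gene Srrm2 was at 10.16 against 13.56, 13.53 and 12.35. Kmt2d, a histone methyltransferase gene with a transcript of 19823 bases, was at 6.14 against 10.90, 11.01 and 8.87. In each of these, TRP1low with M9 was lower than both TRP1high libraries as well.

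Genes of glycolysis and of the response to low oxygen were lower in TRP1low with K8. Of 32 used members of that list, 9 lay below by the margin (28.1%, against 3.69% of all used genes) and 0 above, and 28 were lowest of the 4 libraries by any amount (31.2% of all genes were). The list's median difference was -0.84, against 0.03 for all genes, and -0.74 after adjustment for GC and length. Slc16a3, the lactate exporter MCT4, was at 8.85, against 12.23, 13.18 and 13.02. It was 10.4-fold (9.33 to 11.7) lower than in TRP1high with K8, and the other 3 spanned 0.95. Bnip3, which encodes a mitochondrial protein of mitophagy and cell death, stood at 8.57 against 11.55, 11.78 and 11.44, 7.33-fold (6.48 to 8.34) lower than the nearest.

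Among the genes for glucose entry and for steps within the pathway, Slc2a1, Hk2 and Tpi1 lay closer to the margin and Aldoc did not. The glucose transporter gene Slc2a1 was at 11.34 against 12.60, 12.98 and 12.76. Hk2, the hexokinase that traps glucose in the cell, was at 11.30 against 12.54, 12.99 and 12.34. Triose phosphate isomerase, Tpi1, was at 14.45 against 15.53, 16.03 and 15.48, and did not keep the margin after adjustment for GC and length. Aldoc, an aldolase gene, was at 4.24 against 9.18, 9.19 and 6.96, a distance of -2.73. TRP1low with M9 lay between the TRP1high libraries and TRP1low with K8 there. Among the oxygen-response genes, Egln3, a prolyl hydroxylase that marks HIF proteins for degradation, had a distance of -1.55. The vascular growth factor gene Vegfa had -1.54 and the stress-induced gene Ndrg1 -1.34. Not all members were lower. Ldha, which makes lactate, was at 17.26, within the range of 17.18 to 17.57. Pdk1, a kinase that limits entry of pyruvate into mitochondria, was at 12.72, just above 12.67, 12.22 and 12.62.

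The promoters of the genes with the largest distances of this list that had an entry in the sequence table are shown because hypoxia-inducible factors bind a core ACGTG. Sequences come from RefSeq on GRCm38.p6, run 5′ to 3′ on the gene's strand, and are numbered from the first transcribed base as 1. Slc16a3 is shown from -80 to -1 (chr11:120948987-120949066, plus strand), with the core in capitals at -27 and -14. Bnip3 is shown from -150 to -71 (chr7:138909577-138909656, minus strand), where the core lies on both strands within 1 CACGTG at -108, which is also an E-box.
Slc16a3: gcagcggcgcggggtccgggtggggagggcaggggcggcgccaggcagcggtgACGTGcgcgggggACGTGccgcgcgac
Bnip3: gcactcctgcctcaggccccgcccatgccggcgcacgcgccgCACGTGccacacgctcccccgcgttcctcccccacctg
The core is common: searched on both strands from 250 bases before to 50 after the start, it occurred in 21.8% of all 27025 promoters of the table and in 30.5% of the 7973 promoters of used genes. A match is a string of letters and not a measured site. Promoters were found for 157 of 233 genes above (67.4%) and 291 of 388 below (75.0%). Since fewer than 80% of either set had one, no share of motifs is compared between the sets.

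Many lipid synthesis genes were lowest in TRP1low with K8, and a few lay far outside the range. Of 30 cholesterol and fatty acid synthesis genes, 5 lay below by the margin (3.69% of all used genes did) and 0 above, 26 were lowest in TRP1low with K8 by any amount (31.2% of all), and the median difference was -0.72. Scd1, a stearoyl-CoA desaturase that makes monounsaturated fatty acids, stood at 7.59 against 11.50, 11.82 and 10.98, 10.5-fold (8.86 to 12.6) lower than in TRP1low with M9. Its more abundant paralog Scd2 stood at 13.79 against 15.42, 15.15 and 14.99. Both desaturases separated TRP1low with K8 from all of the others. Fads2, which desaturates polyunsaturated fatty acids, was at 8.74 against 10.92, 11.06 and 10.63. Fasn, the fatty acid synthase with a transcript of 10050 bases, was at 12.98 against 15.01, 14.74 and 14.18. Its distance of -1.20 did not keep the margin after adjustment for GC and length. Srebf2, a transcription factor that drives cholesterol synthesis genes, was lowest too, at 12.95 against 13.71, 13.88 and 13.50, but short of the margin.

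Interleukin 2 acts through a receptor of 3 chains and the transcription factor STAT5, whose targets include the receptor's alpha chain and inhibitors of its own signal. Of 18 genes on this list 8 lay below (44.4%, against 3.69% of all used genes) and 0 above, and the median difference was -0.72. All 8 kept the margin after adjustment for GC and length. Il2ra, the alpha chain, stood at 12.35 against 15.16, 14.95 and 14.60, 4.76-fold (4.60 to 4.92) lower than in TRP1low with M9. The other 3 libraries lay within 0.56 of each other. The beta chain Il2rb (14.59 against 14.84, 13.91 and 13.95) and the common gamma chain Il2rg (13.49 against 13.39, 13.77 and 13.23) lay inside the range.

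Among feedback inhibitors of cytokine signals, Socs2 and Cish lay below, Socs1 was lowest short of the margin (10.23 against 11.05, 10.60 and 10.54), and Socs3 was inside the range at 9.81. Socs2, which limits cytokine signalling, stood at 6.51 against 11.30, 9.99 and 10.46, 11.3-fold (8.79 to 14.7) lower than the nearest. Cish, an inhibitor of cytokine and TCR signalling, stood at 10.29 against 12.21, 12.10 and 12.17, and the others spanned only 0.12. The STAT5 genes themselves were not lower: Stat5a was highest at 11.61, with 11.28 as the next value. Bcl2, which protects cells from apoptosis, was at 9.41 against 12.37, 12.35 and 11.52, 4.32-fold (3.93 to 4.77) lower than in TRP1low with M9. The kinase gene Pim1 was at 10.99 against 12.90, 13.02 and 12.56. The cytokine genes Lif (8.91 against 11.28, 12.16 and 12.01) and Osm (7.91 against 9.45, 9.26 and 9.12), both of the interleukin 6 family, were also below, as was Xbp1, a factor of the secretory stress response, at 11.14 against 12.63, 12.43 and 12.62.
The start of Cish is shown from -40 to 20 (chr9:107296619-107296678, plus strand, GRCm38.p6), since its first transcribed bases hold a pair of STAT-type motifs, TTCNNNGAA, in capitals at 1 and 12.
Cish: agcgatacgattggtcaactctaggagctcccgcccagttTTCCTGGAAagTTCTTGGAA
That motif occurred on either strand in 9.55% of all promoters of the table and in 8.42% of those of used genes.

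**Figure D4:**
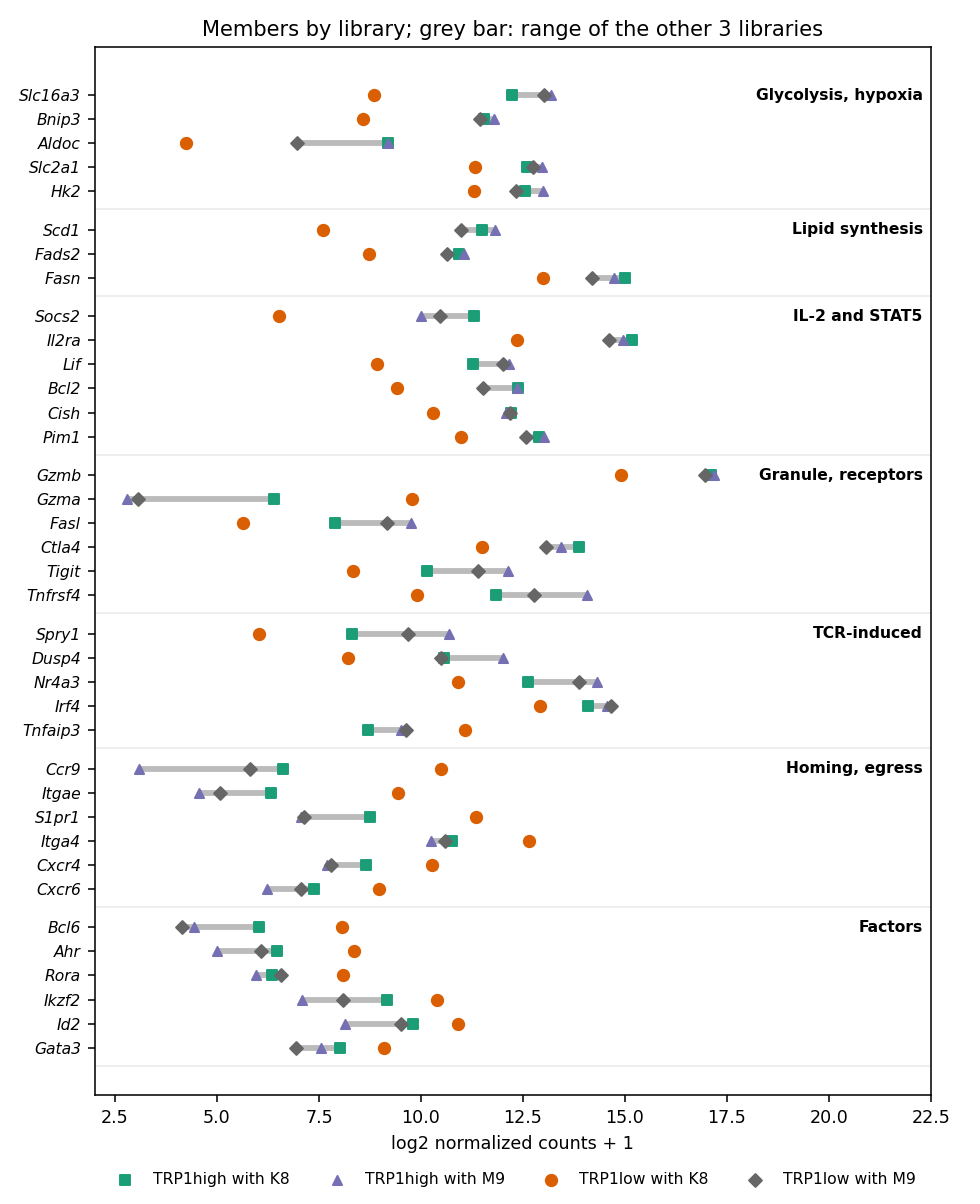
Levels (log2 normalized counts plus 1) of named members in the 4 libraries, grouped by function. Orange circles are TRP1low with K8, the other symbols are the other libraries, and the grey bar is their range; every circle lies at least 1 to the left or right of its bar.

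Cytotoxic genes outside the range by the margin lay below it, except Gzma. Of 15 used granule and death ligand genes 3 lay below and 1 above (3.69% and 2.21% of all used genes did). With the minimum reached elsewhere, 3 of 14 lay below and 0 above (3.75% and 1.25% of all such genes), with a median difference of -0.27. Gzmb, the main granzyme of activated CD8 T cells, stood at 14.89 against 17.12, 17.19 and 16.97, 4.21-fold (4.15 to 4.28) lower than in TRP1low with M9, although the others spanned only 0.22. Fasl, the Fas ligand, stood at 5.63 against 7.89, 9.75 and 9.17. Klrk1, the activating receptor NKG2D, stood at 7.22 against 10.40, 12.56 and 9.47. Gzma, another granzyme gene, lay on the opposite side, at 9.78 against 6.39, 2.80 and 3.07, 10.6-fold (8.40 to 13.4) higher than in TRP1high with K8, and reached 100 counts only in TRP1low with K8. Prf1, which encodes the pore-forming protein perforin, was low with K8 in both TCRs: 8.77 in TRP1low and 8.85 in TRP1high, against 12.31 and 11.55 with M9. Its distance of -0.08 therefore fell far short of the margin.

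Cytokine and chemokine genes did not share a direction. Of 13 used members 2 lay above and 1 below (2.21% and 3.69% of all used genes did), with a median difference of 0.37. Both members above, Ccl1 and Cxcl10, reached 100 counts only in TRP1low with K8, and the median of the 11 genes that reached it elsewhere was -0.16. Ccl1, a ligand of the receptor Ccr8, stood at 7.51 and was at 0, 1.99 and 0 in the others, 61.0-fold (20.5 to 301) higher than in TRP1high with M9, which had 3 estimated reads. Cxcl10, an interferon-induced ligand of Cxcr3, stood at 8.05 against 5.41, 4.83 and 3.95. Lta, lymphotoxin alpha, lay below at 10.96 against 12.98, 12.33 and 13.25. Ifng, interferon gamma, was inside the range at 12.89, between 9.70 in TRP1high with K8 and 13.76 in TRP1low with M9. Tnf was at 9.03 against 8.63, 8.11 and 8.83.

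Receptors that restrain or support T cell activation were lower where they were outside the range by the margin, and some were highest short of it. Of 11 used inhibitory receptors 4 lay below and 0 above, with a median difference of -1.14, and of 21 activation and costimulatory receptors 4 lay below and 0 above, with a median of -0.28. Of all used genes 3.69% lay below. By any amount, 3 of the 11 were highest and 6 lowest in TRP1low with K8, and 6 and 10 of the 21 (33.7% and 31.2% of all used genes). Short of the margin, Cd160 was highest at 11.37 against 10.08, 10.76 and 10.76, and Slamf6 at 12.27 against 11.55, 11.37 and 11.08. Ctla4, which competes with CD28 for its ligands, stood at 11.48 against 13.88, 13.42 and 13.05. Tigit stood at 8.34 against 10.16, 12.12 and 11.39. Cd200 stood at 8.97 against 10.46, 13.22 and 12.49, and Lag3, a receptor for MHC class II, at 11.27 against 12.43, 14.24 and 13.89, a distance that did not keep the margin after adjustment for GC and length. In the last 3, TRP1high with K8 was the nearest library, and the others spanned 1.81 to 2.76. Pdcd1, which encodes PD-1, was not outside the range, at 10.23 with 10.13 in TRP1high with K8.

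Among costimulatory receptors, Tnfrsf4, which encodes OX40, stood at 9.91 against 11.83, 14.07 and 12.76, 3.78-fold (3.48 to 4.10) lower than the nearest. Cd5, whose level is known to follow TCR signal strength, stood at 9.99 against 11.57, 13.15 and 11.60. Its relative Cd6 was at 11.36 against 12.50, 13.44 and 12.56, and did not keep the margin after adjustment for GC and length. Slamf1 was at 8.54 against 10.17, 11.25 and 10.59. The activation markers Cd69 (11.56 against 10.86, 11.45 and 11.89) and Cd44 (12.59 against 12.02, 12.86 and 12.84) lay inside the range.

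TCR-induced genes were lower in part. Of 34 used members 8 lay below and 1 above (3.69% and 2.21% of all used genes did), with a median difference of -0.66. The genes below included feedback inhibitors of the MAP kinase cascade: Spry1 stood at 6.02 against 8.31, 10.69 and 9.69, Dusp4 at 8.21 against 10.57, 12.01 and 10.48, and Dusp6 at 7.88 against 9.36, 10.74 and 9.98. Nr4a3, an orphan nuclear receptor, stood at 10.90 against 12.62, 14.32 and 13.88, and its relative Nr4a2 at 5.13 against 8.67, 10.51 and 6.74. Another family member, Nr4a1, lay inside the range at 11.10, above 10.82 in TRP1high with K8. Egr1, Egr2 and Egr3, immediate early factors downstream of the MAP kinase cascade, were inside the range as well, with Egr3 at 10.19 against 9.25, 10.51 and 10.37.

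Irf4, a factor that scales with TCR signal and supports effector growth, stood at 12.91 against 14.10, 14.57 and 14.65, 2.28-fold (2.21 to 2.35) lower than in TRP1high with K8. The AP-1 genes Fosl1 (4.75 against 6.54, 7.52 and 7.02) and Fosl2 (7.54 against 8.78, 11.12 and 9.37) completed the 8. Tnfaip3, which encodes the NF-kB inhibitor A20, was the 1 member above, at 11.07 against 8.69, 9.52 and 9.62. Myc, a driver of T cell growth, was lowest at 12.78 against 13.76, 13.90 and 13.53, short of the margin.

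Stress and growth lists gave few members. The share of all used genes that lay below, for comparison with the counts here, was 3.69%. Atf3, a stress-induced transcription factor, had the third largest distance of all named genes below: 3.69 against 9.72, 11.52 and 9.94, 70.9-fold (35.8 to 150) lower than in TRP1high with K8. With Chac1 (5.93 against 7.54, 7.77 and 7.54), Trib3 and Cebpb, it made 4 of 32 integrated stress response and amino acid genes below, with a list median of -0.20. Trib3 and Cebpb did not keep the margin after adjustment for GC and length. The factor at the head of that response, Atf4, was lowest at 12.46 against 13.73, 13.63 and 13.23, short of the margin. The unfolded protein response list had 1 of 20 below, Xbp1, with a median of -0.06, and its chaperone Hspa5 was inside the range at 14.92. MYC and ribosome biogenesis genes had 2 of 29 below, Ncl and Nolc1, with a median of -0.06.

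Cell cycle genes as a list stood level, with 1 of 39 below (2.56%, against 3.69% of all used genes), 0 above and a median of 0.07. That gene was Mki67, the proliferation antigen with a transcript of 10061 bases, at 8.77 against 12.54, 12.47 and 10.30. Other cycle genes did not follow it: the cyclin gene Ccnb1 was at 13.11 against 12.98, 12.82 and 13.08, and the replication helicase gene Mcm5 at 14.66 against 14.60, 14.24 and 14.44. Top2a was lowest at 12.96 against 14.37, 14.49 and 13.77, short of the margin. The long kinetochore genes Cenpe (6.78 against 10.94, 10.69 and 9.50) and Cenpf (6.08 against 10.60, 10.70 and 8.92), chosen after their values were seen, lay below. Of 27 nuclear genes of the respiratory chain 0 lay outside the range by the margin in either direction, and their median was 0.00. By any amount, 6 of them were highest and 10 lowest in TRP1low with K8 (33.7% and 31.2% of all used genes).

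Interferon-stimulated genes outside the range by the margin lay below it, except Rtp4, and the spread of the list among the other libraries was wide. Of 35 used members 5 lay below and 1 above (3.69% and 2.21% of all used genes did), with a median difference of -0.50 and a median range of 1.04. With the minimum reached elsewhere, 5 of 34 lay below and 0 above (3.75% and 1.25% of all such genes), with a median of -0.54. Iigp1 (9.87 against 11.99, 12.13 and 11.65) and Gbp5 (10.82 against 12.17, 12.32 and 11.84), both GTPases of cell-autonomous immunity, lay below a narrow range. Isg15 (5.83 against 6.84, 10.57 and 6.98) and Rsad2 (0.95 against 3.99, 7.31 and 4.85) lay below a wide one, and Isg15 did not keep the margin after adjustment for GC and length. Mx2 was at 0 in TRP1low with K8, at least 1.96-fold lower than in TRP1low with M9 when the floor of 3 reads is used. Rtp4 was the 1 member above, at 7.45 against 5.61, 6.18 and 4.14, and reached 100 counts only in TRP1low with K8.

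Chemokine receptors, integrins and egress genes were the pathway list with the largest share above the range. Of 21 used members 8 lay above (38.1%, against 2.21% of all used genes) and 0 below, all 8 kept the margin after adjustment for GC and length, and the median difference was 0.68. Ccr8, Ccr9 and Itgae reached 100 counts only in TRP1low with K8. With the minimum reached elsewhere, 5 of 18 lay above (1.25% of all such genes did), and the median was 0.63. S1pr1, the receptor that guides T cells out of lymphoid tissue, stood at 11.35 against 8.75, 7.05 and 7.13, 6.07-fold (5.46 to 6.75) higher than in TRP1high with K8. Ccr9, a receptor for entry into the small intestine, stood at 10.50 against 6.61, 3.08 and 5.80, a distance of 3.89. TRP1high with K8 was nearest for both, so the order put the K8 libraries above the M9 libraries. Itgae, the integrin CD103 that binds E-cadherin on epithelium, stood at 9.43 against 6.32, 4.57 and 5.07. Itga4, the alpha4 integrin chain, stood at 12.64 against 10.77, 10.24 and 10.58, and here the others lay within 0.53.

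The remaining 4 members were chemokine receptors. Cxcr4 stood at 10.28 against 8.66, 7.69 and 7.80. Cxcr5, the B cell follicle receptor, stood at 10.86 against 9.48, 7.48 and 8.37. Cxcr6 stood at 8.97 against 7.37, 6.21 and 7.06. Ccr8, whose ligand gene Ccl1 was also above, stood at 7.13 against 2.32, 4.99 and 4.82. Cxcr3, a receptor of effector cells, was not outside the range: it stood at 10.23 with 10.42 in TRP1high with K8, against 6.86 and 6.82 with M9. The lymph node entry receptor gene Ccr7 was lowest in TRP1low with K8, at 13.95 against 14.10, 14.86 and 14.23, short of the margin.

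**Figure D5:**
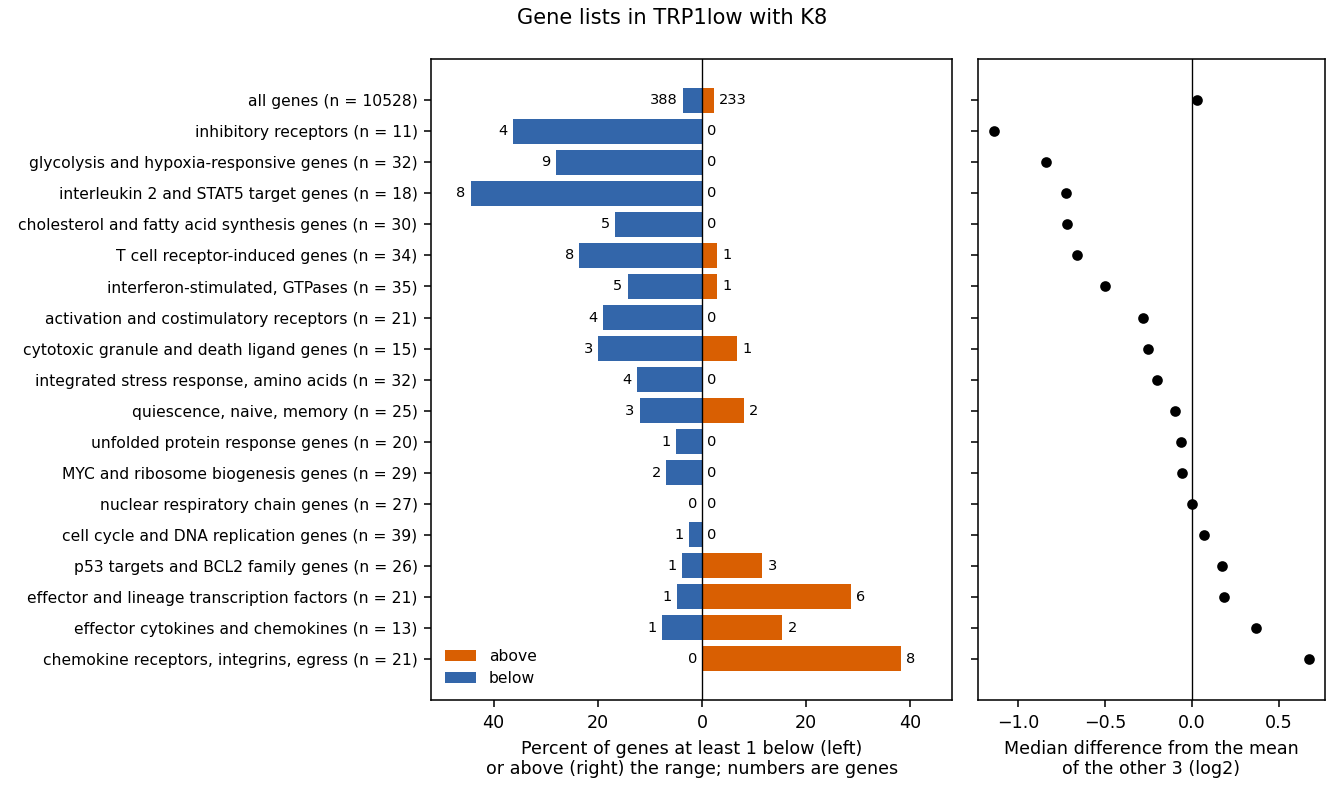
Left: percent of each list's used genes at least 1 below (blue) or above (orange) the range of the other 3, with the number of genes beside each bar. Right: median difference of each list from the mean of the other 3 (log2), where inhibitory receptors stand at -1.14 and chemokine receptors, integrins and egress genes at 0.68.

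Transcription factors of effector and lineage choice lay on both sides. Of 21 used members 6 lay above and 1 below (2.21% and 3.69% of all used genes did), with a median of 0.18. Bcl6, Ahr and Rora reached 100 counts only in TRP1low with K8. With the minimum reached elsewhere, 3 of 18 lay above and 1 below, and the median was -0.11. Bcl6, a repressor linked to memory and follicular fates, stood at 8.06 against 6.02, 4.45 and 4.14, 4.16-fold (3.12 to 5.60) higher than in TRP1high with K8. Ahr, the aryl hydrocarbon receptor, stood at 8.36 against 6.48, 4.99 and 6.07. Rora, a nuclear receptor with a transcript of 10878 bases, stood at 8.08 against 6.35, 5.94 and 6.58. Ikzf2, which encodes Helios, stood at 10.40 against 9.17, 7.07 and 8.10. Id2 (10.91 against 9.79, 8.13 and 9.51) and Gata3 (9.10 against 8.01, 7.54 and 6.95) were above by little more than the margin, and did not keep it after adjustment for GC and length. Nfil3 lay below at 7.23 against 9.90, 10.08 and 9.02. The effector factors Tbx21, which encodes T-bet (11.63 against 11.70, 11.97 and 11.91), and Eomes (11.15 against 11.07, 9.63 and 10.94) were within 0.08 of the range.

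Genes of quiescent, naive and memory cells were mixed: of 25 used members 2 lay above and 3 below (2.21% and 3.69% of all used genes did), with a median of -0.10. Il7r, the interleukin 7 receptor alpha chain, stood at 11.28 against 9.90, 9.05 and 9.28. Cd7 stood at 8.68 against 5.05, 2.96 and 4.55, and reached 100 counts only in TRP1low with K8. Tcf7, which encodes TCF1, was highest at 14.39 against 13.49, 13.04 and 13.31, and Klf2, which induces S1pr1, at 10.03 against 9.20, 7.98 and 7.89, both short of the margin. On the low side were Ly6a, which encodes Sca-1 (11.26 against 13.74, 14.52 and 13.29), Foxp1, a factor that holds T cells in quiescence (10.40 against 12.37, 12.19 and 11.57), and Igfbp4 (5.81 against 10.63, 9.84 and 7.10).

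The p53 target and BCL2 family list held Bmf, Bcl2l11 and Sesn1 above the range and Bcl2 below it, that is 3 and 1 of 26 used genes (2.21% and 3.69% of all used genes), with a median of 0.18. Bmf, a pro-apoptotic BH3-only gene that reached 100 counts only in TRP1low with K8, stood at 7.37 against 5.07, 5.24 and 5.69, 3.24-fold (2.31 to 4.66) higher than in TRP1low with M9. Bcl2l11, which encodes BIM, stood at 11.90 against 10.28, 10.65 and 10.86, and its distance of 1.05 did not keep the margin after adjustment for GC and length. Sesn1, a sestrin that restrains mTORC1, stood at 11.47, with 10.13 as the highest value elsewhere. Its relative Sesn3 was at 12.38 against 11.17, 11.17 and 11.27. The pro-survival genes Mcl1 (13.55 against 12.91, 13.11 and 13.23) and Bcl2l1 (12.44 against 12.30, 12.24 and 12.27) were highest in TRP1low with K8, short of the margin.

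The largest distances above came from genes with few reads elsewhere. The adult globin gene Hba-a2 was at 7.93 and at 0 in the other 3, at least 81.3-fold higher than the floor of TRP1high with K8, and Hba-a1 was at 6.93 against 1.22, 2.82 and 1.19. These genes are near-identical copies, so the split between them is uncertain. Hbb-bs, a beta globin gene, was at 7.75 against 1.51, 2.02 and 1.74. All 7 measured erythroid and platelet markers were highest in TRP1low with K8 (33.7% of all used genes were). The summed normalized counts of these 7 markers were 782, against 4.80, 26.7 and 4.23. Plb1, a phospholipase gene, stood at 8.08 against 1.86, 0.54 and 0, 103-fold (30.3 to 440) higher than in TRP1high with K8. Il9r, the interleukin 9 receptor chain, stood at 7.53 against 2.34, 0.69 and 0. These globin genes, Plb1 and Il9r reached 100 counts only in TRP1low with K8.

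Further genes of the first 15 are known for signalling, transport and enzyme roles. Tbc1d4, a Rab GTPase-activating protein of glucose transporter traffic, stood at 12.25 against 8.13, 7.06 and 7.91, 17.5-fold (15.5 to 19.8) higher than the nearest. Kit, the stem cell factor receptor, stood at 9.95 against 5.89, 5.28 and 3.68. Wnt10a, a secreted Wnt ligand, stood at 9.12 against 4.78, 4.98 and 5.09, where the others spanned 0.31. Car2, a carbonic anhydrase, stood at 10.26 against 3.14, 3.60 and 6.31, and Asb2, a ubiquitin ligase subunit, at 7.87 against 2.58, 3.37 and 2.57. Art3 and Nkx1-2 were at 6.67 and 6.99, with 2.49 and 3.23 as their highest values elsewhere. Kit, Wnt10a, Car2, Asb2, Art3 and Nkx1-2 reached 100 counts only in TRP1low with K8. The most abundant genes above were closer to the range: Cdc42se2, Desi2, Tspan13, Cldnd1, Fam78a and Fam129a had distances from 1.03 (Cdc42se2) to 1.67 (Cldnd1), and Cdc42se2 and Tspan13 did not keep the margin after adjustment for GC and length.

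The largest distances below were held by genes at or near 0 in TRP1low with K8. Mgarp, a mitochondrial protein gene, was at 0 against 7.42, 7.85 and 6.79, at least 26.7-fold lower than in TRP1low with M9. Eif4ebp3, a translation inhibitor of the 4E-BP family, was at 0 against 6.70, 7.10 and 6.86, at least 25.1-fold lower. Myh10, a non-muscle myosin heavy chain, was at 0 against 5.88, 9.64 and 8.14, and the hormone gene Insl3 at 0 against 6.86, 7.90 and 5.68. Smtnl2, Zfp608, Fam20a and Nectin1 were at 0 too, with 5.34, 5.15, 4.92 and 4.25 as their lowest values elsewhere.

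With reads left in TRP1low with K8, Ptpn5, a tyrosine phosphatase, stood at 2.35 against 7.92, 9.98 and 9.09. Tgm2, a transglutaminase, stood at 3.48 against 10.12, 9.09 and 7.98, and Fzd7, a Wnt receptor, at 2.35 against 7.35, 7.55 and 7.67. Setbp1 (1.24 against 7.46, 6.64 and 5.46), Pkib (2.76 against 8.11, 6.94 and 8.28) and Fam84a (3.33 against 7.66, 8.57 and 7.48) completed the 15. Ptpn5 and Fzd7 were near the floor of 3 reads in TRP1low with K8, at log2 2.35, and Setbp1 was under it, so their folds rest on very few reads.

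Markers of other cells gave values beside the genes above. Of all used genes 33.7% were highest and 31.2% lowest in TRP1low with K8, for comparison with the counts here. Of 24 measured B cell markers 8 were highest in TRP1low with K8 and 1 lowest. Of 15 used ones 1, the B lineage factor Spib, lay above by the margin at 8.37 against 5.52, 1.90 and 3.85. Spib reached the minimum count only in TRP1low with K8. With the minimum reached elsewhere, 0 of 14 used B cell markers lay above. The summed normalized counts of the 24 markers were 21992 in TRP1low with K8, against 23111, 18044 and 18485, so the highest sum lay in TRP1high with K8. Of 13 measured myeloid markers 10 were highest in TRP1low with K8, with a sum of 6120 against 4508, 6513 and 4874. Of the 4 used ones 0 lay outside the range by the margin, and 1 was highest by any amount. Of 5 CD4 T cell markers 2 were highest and 2 lowest in TRP1low with K8, and of 2 used ones 1 lay above and 1 below by the margin. The 5 summed to 1376 against 289, 179 and 318. Trat1, a TCR adaptor also found in CD8 T cells, carried most of that sum at 10.38 against 7.68, 5.94 and 7.51, while Cd4 was at 4.73 against 1.64, 0 and 4.27. Of 8 measured gamma delta T or NK markers 5 were highest, with a sum of 3575 against 2875, 1327 and 2803. B cells also express Cxcr5, Cxcr4 and Bcl6, and red cells the globin genes. The part of such cells in the genes above was not tested. Without the marker genes of other cells, 227 genes lay above and 387 below.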

How the data were processed

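The values deposited by the authors are log2 normalized counts per the file headers, 1 per symbol in each library. Low values pile up at whole multiples of 1 step, so the unit was read as log2 of a scaled estimated count plus 1. Salmon 0.8.2, DESeq2 1.20.0 and the build mm10 come from the submitters' processing notes; which annotation, settings and filters were used is not given in the sources used here. A gene's count could include reads of near-identical copies. The step (normalized counts per read: 1.37 in TRP1low with K8, 1.05 in TRP1low with M9, 0.998 in TRP1high with K8 and 0.989 in TRP1high with M9) gave estimated reads, and the floor of 3 reads. Between 56.2% and 56.4% of values up to 50 lay within 0.01 of a whole read, so whole reads were not recovered and no count test was run.

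Of 16338 rows, 16196 (99.1%) had a symbol in GENCODE M21 (GRCm38, mm10), which gave transcript lengths (232 of 233 genes above, 384 of 388 below); 20 names were date-like and 1 was repeated. Columns of per-sample values not used: 0. Python 3.11.15, pandas 2.3.3 and scipy 1.17.1 were used, and the script was tested on simulated data.

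The members and lists (18 pathway and 8 marker lists) were chosen with earlier results of these data known. Named genes were the 15 with the largest distance and the 8 with the highest mean in each direction, every pathway list member outside the range, and 3 genes on either side of the margin, without unnamed models, pseudogenes, histone genes and receptor segments; list genes within the range are given as counter-examples. The plasma cell and mitochondrially encoded lists complete the marker lists. The plasma cell list had 1 used gene, 0 outside the range by the margin and a median of -0.69. The mitochondrially encoded list had 13, 0 and 0.46. By any amount, the plasma cell gene was lowest in TRP1low with K8. Of the 13 mitochondrially encoded genes 7 were highest there and 0 lowest (33.7% and 31.2% of all used genes). Alternatives changed the minimum, margin, added value, floor, scaling, gene sets and libraries, 1 at a time; 3 of them, the minimum in the other libraries, the longest transcripts left out and the GC and length adjustment, were chosen after seeing the data. Some members are not reported here.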

Additional observations from a re-analysis of the deposited data

How the results depend on the processing

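No paired analysis was possible because each group holds 1 library. The 233 genes above and 388 below became 730 and 1161 with no minimum but a mean of at least 1 normalized count (16102 genes used), and 61 and 104 at a distance of at least 2. Leaving out 1 of the other 3 libraries, which narrows the range, gave 263 to 470 above and 412 to 802 below. When the minimum had to be reached in 1 of the other 3, 129 lay above. The genes that met it gave a median of -0.16 for cytokines and -0.11 for transcription factors, both above 0 in the report. Minimums of 50 and 200, the value plus 10, the floor, both rescalings, and leaving out unnamed genes, marker genes or the class of longest transcripts gave 168 to 313 above and 283 to 481 below. Under the other settings 2 of 26 list medians were classed as reversed in sign. That class leaves out very small medians. It also leaves out medians smaller than the spread of the same list's medians among the other 3 libraries. The respiratory chain median, 0.001 as reported, was one of those left out, at -0.019 after adjustment for GC and length. Both reversed medians were of marker lists: CD4 T cells with 2 used genes (-0.63, and 0.17 with 10 added) and CD8 T cells (-0.20, and -0.32 to 0.028 with 1 library left out, above 0 without TRP1high with M9). The cause was not tested. Of 122 named members, 113 kept the margin with 10 added, 121 with the floor, 119 with either rescaling and 105 after the GC and length adjustment, and all 122 kept their side in these settings. At 29.6 M reads, TRP1low with K8 resolves genes near the floor worst.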

Other observations

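Receptors for other cytokines, chosen after their values were seen, lay on both sides. Il6st, the shared signal chain of the interleukin 6 family, stood at 12.44 in TRP1low with K8 against 10.74, 9.21 and 10.04 (TRP1high with K8, TRP1high with M9 and TRP1low with M9), 3.25-fold (3.07 to 3.44) higher than the nearest. Il1rl1, the receptor for interleukin 33, stood at 6.89 against 4.89, 3.46 and 4.20, and reached 100 counts only in TRP1low with K8. Il12rb2, a chain of the interleukin 12 receptor, was lower, at 10.88 against 13.14, 13.49 and 12.80, a distance of -1.92, and its partner Il12rb1 stood at 10.78 against 12.23, 12.04 and 11.95. Malt1, which carries the TCR signal to NF-kB, was below the range at 10.35 against 11.57, 12.90 and 12.13.

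Some further genes above the range were also chosen after their values were seen. Klhl24 stood at 9.44 against 7.99, 8.05 and 8.01. Mxd4, which competes with MYC for its partner, stood at 9.56 against 7.28, 7.95 and 6.80, and Pik3ip1, an inhibitor of PI3 kinase, at 9.21 against 8.10, 7.48 and 7.93. Ypel3 stood at 9.30 against 6.60, 7.39 and 5.88. Dntt, the terminal transferase of immature lymphocytes, stood at 9.40 against 6.99, 4.97 and 6.74. Among genes that B cells express, Cd72 stood at 9.42 against 7.02, 7.44 and 7.24 and H2-Oa at 9.76 against 8.41, 8.44 and 7.79. Of the 15 used B cell markers 11 lay inside the range, 3 were highest and 1 was lowest in TRP1low with K8. The summed normalized counts of all 24 markers were 21992 there, against 23111, 18044 and 18485. The part of B cells in the values of Cd72 and H2-Oa was not tested.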
